A study of Mytilus galloprovincialis with 16 samples.

Results

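The ripening of the male gonad was described from the 4 arrays on which mantle RNA of stage 3 mussels was hybridised directly against mantle RNA of stage 2 mussels. They were chosen by the sample titles (Stage3/Stage2, replicates 1 to 4), out of 16 arrays in the series, and all 1920 cDNA clones printed on the array were read. The animals were male Mytilus galloprovincialis, the Mediterranean mussel, from a natural population of the Bizerta Lagoon in Tunisia, and each dye channel held the RNA of a single individual. Stage 2 is the stage of gonad development and stage 3 the ripe stage, as scored from histological sections of the mantle in the study's methods. The stage 2 mussels were collected in January and the stage 3 mussels in February, so that stage and month cannot be told apart. On replicate 1 a second label field gives January for the stage 3 animal too, while its stage is given as 3 in both fields. The other 12 arrays paired stage 2 with 1, 4 with 3 and 4 with 1.

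In mussels the gonad has no compartment of its own and spreads through the mantle as branching follicles, between storage cells that hold glycogen and lipid. During development, spermatogonia line the follicle wall and divide into spermatocytes and spermatids. In the ripe gonad the follicles are filled with sperm, and the storage tissue is reduced. A ratio between mantles of both stages therefore covers germ cells, storage cells and all other mantle cells together. In such bulk RNA, fewer cells of a type and less RNA per cell cannot be told apart.

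Relative mRNA abundance is given as the log2 ratio of stage 3 over stage 2, so that a value of 1 is a 2-fold higher abundance in the ripe stage. Each clone was spotted in duplicate, and its ratio on an array is the mean of its 2 spots after normalization. The clones carry no gene name in the files used here and could not be paired with genes, so that a clone stands for an unnamed mRNA. Markers of sperm, storage cells or other cells of the mantle could not be looked up for the same reason, and the labelled tissue and stage could not be checked against them. No clone sequence was used here. Clone IDs consist of a plate number (001 to 020, 96 clones each) and a well.

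In the ripe stage 222 clones were higher and 227 were lower than in stage 2, at an adjusted p below 0.05 in limma, which fits a linear model to each clone and moderates its variance across all clones. These 449 clones are 23.4% of the 1920 tested, with 11.6% higher and 11.8% lower, and 681 clones had an unadjusted p below 0.05. The median log2 ratio was 0.58 among the clones that rose, or 1.49-fold, and -0.69 among those that fell, or 1.61-fold. All 449 clones had the same sign on the 4 arrays, as did 853 of the 1920 clones tested. The counts depended on single arrays. Without replicate 2, 16 clones were called higher and 85 lower, without replicate 3, 88 and 127, and without replicate 1, 149 and 146. With median centring of each array in place of print-tip loess, which levels the ratios over the intensity range within each print block, 43 clones were called higher and 91 lower, so that 32.1% of the calls were rises, against 49.4%.

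On the direct arrays, more than 2-fold changes were found in 32 of the 222 clones that rose and in 73 of the 227 that fell, and more than 4-fold changes in 5 and 17. A second estimate from the other 12 arrays, described further on, had the sign of the direct ratio in 29 of these 32 rises but the opposite sign in 54 of the 73 falls. By that estimate 58.3% of all clones were above 0. A change of over 2-fold on each of the 4 arrays was seen in 7 rising and 36 falling clones. Every clone whose mean ratio passed 2-fold was called, 105 in all. At the other end, 207 of the 449 calls (46.1%) were changes of less than 1.5-fold. The lowest mean ratio was -2.71 and the highest 2.64. With the log odds (B) above 0, the threshold in the study's methods, 30 clones were higher and 92 lower (6.35% of 1920).

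The strongest rise was that of clone Myt01-001G04. Its log2 ratio was 1.82 on replicate 1, 3.37 on replicate 2, 3.39 on replicate 3 and 1.98 on replicate 4. Its raw intensity lay between 1747 and 5325 in the stage 3 channels and between 545 and 1669 in the stage 2 channels, against local backgrounds of 202.5 to 327. The ripe mussel was thus higher on each array, most so on replicates 2 and 3, which carried opposite dyes. The mean was 2.64 ± 0.86 (SD, n = 4), a 6.23-fold rise (SE 0.31, limma adjusted p = 0.00614).

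Clone Myt01-003D11 had a ratio of 1.28 on replicate 1, 3.34 on replicate 2, 4.05 on replicate 3 and 1.34 on replicate 4. All 4 ratios were positive, but those of replicates 2 and 3 stood far above the other pair. Its stage 3 intensity was 1758 to 4858, and its stage 2 intensity fell to 421 on replicate 3, near a background of 212. The mean of 2.50 ± 1.41 (SD, n = 4), or 5.65-fold, passed the test (SE 0.49, limma adjusted p = 0.017) but had B = -0.98. Without replicate 2 the mean was 2.22 and no longer passed (limma adjusted p = 0.0674).

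The deepest fall was that of clone Myt01-012A11, at -2.14 on replicate 1, -2.91 on replicate 2, -3.93 on replicate 3 and -1.84 on replicate 4. It was among the bright clones of stage 2, with 9601 to 24094 in the stage 2 channels against 1336 to 5321 in those of stage 3. Its mean was -2.71 ± 0.94 (SD, n = 4), a 6.52-fold lower abundance in the ripe stage (SE 0.33, limma adjusted p = 0.00621).

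Clone Myt01-013H05 followed with -2.32, -2.76, -3.75 and -1.68 on replicates 1 to 4. Its intensity was 12875 to 32983 in stage 2 and 1772 to 6792 in stage 3, so that the channels of both stages did not overlap. The mean was -2.63 ± 0.87 (SD, n = 4), or 6.18-fold lower (SE 0.31, limma adjusted p = 0.00614). For all 4 clones the ratio was furthest from 0 on replicate 3.

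**Figure D1:**
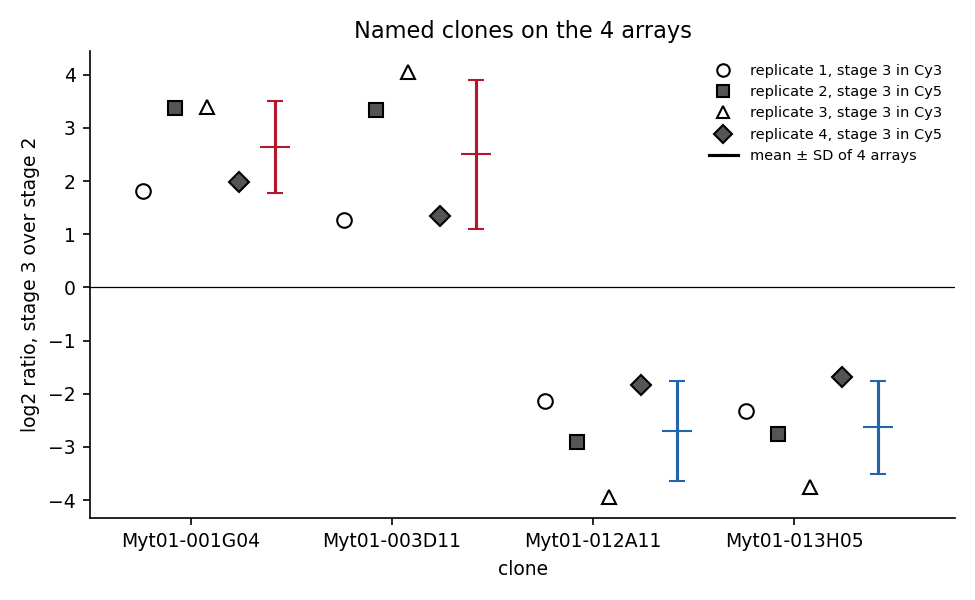
Log2 ratio of stage 3 over stage 2 (y axis) for the 4 named clones (x axis), 1 symbol per array, open where stage 3 was labelled with Cy3 and filled where it was labelled with Cy5; the bars are the mean and SD of 4 arrays. All 16 points lie on the side of 0 of their mean, and replicates 2 and 3 are further from 0 than replicates 1 and 4.

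The 17 clones that fell by more than 4-fold resembled these examples in being bright. A clone counted as well above background in a channel when at least 1 of its spots lay over 2 background SDs beyond the local background median. All 17 met this in both channels on each array, and the ratio differed from 0 by at least 1.44 on every array. They came from 9 plates. The 5 clones that rose by more than 4-fold were also above background throughout, and 4 of them lay on plates 001 to 003. Their smallest ratio on an array was 0.92 and their largest 4.05, and they varied more from array to array. The median SD over the 4 arrays was 1.13 for these rises and 0.76 for the falls.

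The 4 arrays ordered the clones alike but differed in the size of the changes. Across the 1920 clones, which are not independent replicates, the correlation between arrays was 0.664 to 0.829, with a median of 0.781. The SD of the log2 ratios was 0.41 on replicate 1, 0.64 on replicate 2, 0.75 on replicate 3 and 0.39 on replicate 4. Among the 449 called clones, replicate 3 held the ratio furthest from 0 in 299 and replicate 2 in 120, against 15 each for replicates 1 and 4. For the clones that rose, the median ratio was 0.41, 0.73, 0.81 and 0.43 on replicates 1 to 4, and for those that fell it was -0.55, -0.81, -0.99 and -0.47. Replicates 2 and 3 thus showed wider changes in both directions than replicates 1 and 4.

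The wider changes did not go with 1 dye. Stage 3 was labelled with Cy3 on replicates 1 and 3 and with Cy5 on replicates 2 and 4, so that each orientation held 1 array of wide and 1 of narrow changes. Arrays of the same orientation correlated at 0.821 and 0.829, and those of opposite orientation at 0.664 to 0.814. In a limma fit with a dye term, no clone (0%) had a dye effect at an adjusted p below 0.05, and 150 clones had an unadjusted p below 0.05, where 96 are expected by chance. The term rests on 2 arrays of each orientation and could miss dye effects. With that term 390 clones were called for stage, 367 of them among the 449. All 449 clones had the same sign on the 4 arrays, so that the means of both dye orientations necessarily shared it.

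Repeated spots on an array agreed better than arrays. The median SD between the duplicate spots of a clone was 0.15 on the log2 scale, and the median SD between arrays was 0.21. The former is for single spots and the latter for means of 2 spots, so the values are not like for like. For the called clones these values were 0.11 and 0.29. Duplicate spots correlated across clones at 0.845 and 0.877 on replicates 2 and 3, and at 0.719 and 0.741 on replicates 1 and 4. The labels do not say whether an animal was used on more than 1 array.

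Calls were rare among dim clones. Clones were ranked by their mean log2 intensity over both dyes and split into 4 sets of 480. In the dimmest set 0.625% of the clones were called, followed by 9.38%, 33.3% and 50.2% in the brightest. The brightest set held 117 rises and 124 falls, with 24 and 53 of them over 2-fold. Rises and falls were thus nearly even in number among bright clones, but changes over 2-fold leaned towards falls.

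**Figure D2:**
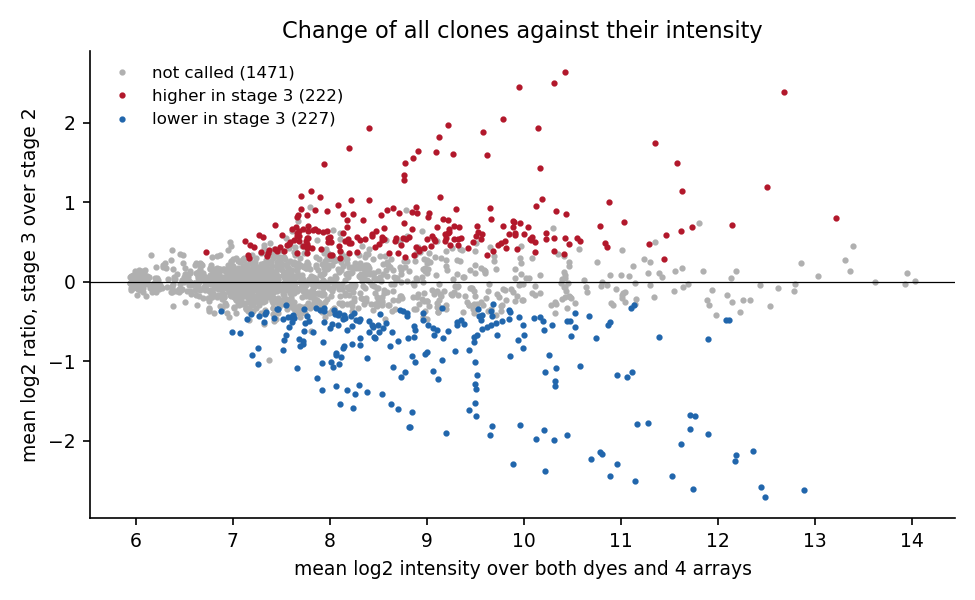
Mean log2 ratio of stage 3 over stage 2 on 4 arrays (y axis) against the mean log2 intensity over both dyes (x axis), 1 point per clone, with 222 clones called higher in red, 227 called lower in blue and 1471 not called in grey. Calls thin out to the left, where the 480 dimmest clones hold 1 rise and 2 falls.

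The share of clones well above background was 45.2%, 60.8%, 49.3% and 80.9% in the stage 3 channels of replicates 1 to 4, and in the stage 2 channels it was 72.9%, 56.2%, 64.3% and 67.6%. In each array the Cy5 channel had the higher share, so that the dye moves with it. Both channels were well above background on all 4 arrays for 717 clones, and 293 of these were called (40.9%), against 156 of the other 1203 (13%). A further 238 clones were never above background in either stage, and 0 of them were called by limma, with 6 at an unadjusted p below 0.05.

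For some clones only an approximate bound on the change was measured. In the stage 3 channels, 60 clones were above background on no array while they were on at least 1 in stage 2. The bound was above 1 for 23 of these clones and reached 1.77-fold lower in stage 3. Limma called 6 of the 60, all lower, and only 3 were above background in stage 2 on all 4 arrays. In the reverse case, 82 clones were not well above background in stage 2 on any array. Here 28 had a bound above 1, the highest being 1.27-fold higher in stage 3. Limma called 2 of the 82, both higher, and 0 were above background in stage 3 on all 4 arrays. For most of these clones the bright stage was thus itself not above background on some arrays, and the values are not strict limits. Each bound sets the mean log2 intensity of the bright stage against, per array, the higher of the dim clone's own signal and the lowest signal above background, and it is open to dye bias.

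Many of the rises lay on the first plates of the clone collection. Plates 001, 002 and 003 held 23, 33 and 32 clones that rose and 4, 1 and 0 that fell. Together these 288 clones had 88 rises (30.6%, against 11.6% of all clones) and 5 falls (1.74%, against 11.8%), and they held 39.6% of all rises. The grouping of plates was chosen after the values had been seen and is given without a test. Without replicate 2 these plates had 7 rises, and without replicate 3 they had 33. With median centring they had 25, and without background correction 56.

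The shift was not limited to the called clones. Of the 288 clones, 224 (77.8%, against 48.9% of all clones) had a mean ratio above 0, and the median ratio of the 288 was 0.21. The size of this median depended on the background, at 0.10 without background correction and 0.32 with plain subtraction. By array the median was 0.16, 0.25, 0.38 and 0.12 on replicates 1 to 4, above 0 each time. Of their 125 clones with both channels above background on each of the 4 arrays, 52 rose and 4 fell. On all plates, 153 of 717 such clones rose and 140 fell. Plate 004, printed in other blocks of the array, had 12 rises and 4 falls and a median of -0.02.

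Many of the falls lay on later plates. On plates 010 to 015 and 018, 139 of 672 clones fell (20.7%, against 11.8% of all clones) and 48 rose (7.14%, against 11.6%). These plates held 51 of the 73 falls over 2-fold, and 54 of those 73 had the opposite sign by the second estimate described further on. This grouping too was chosen after the values had been seen, and its counts were not repeated without single arrays. The median ratio of these plates was -0.09, and it was below 0 on each array, at -0.10, -0.09, -0.16 and -0.06. Plates 005 to 009 were nearly even, with 46 rises and 55 falls among 480 clones. Plates 016, 017 and 019 had 28 rises and 24 falls among 288. None of the 96 clones of plate 020 was called by limma, with 1 at an unadjusted p below 0.05, and 81 of them were never above background.

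**Figure D3:**
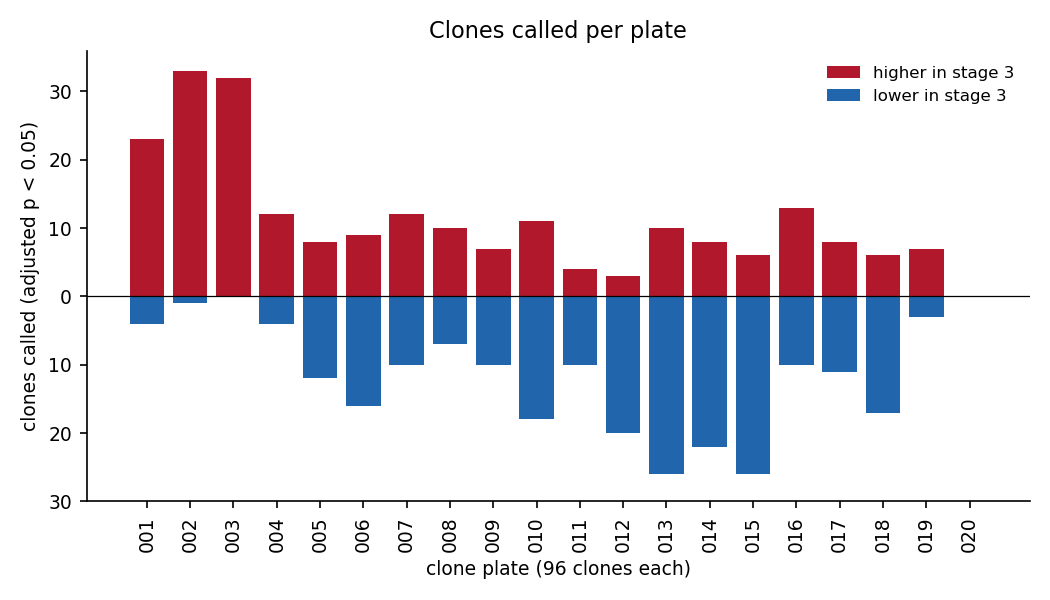
Number of clones called higher (red, upwards) and lower (blue, downwards) in stage 3 (y axis) on each of the 20 plates of 96 clones (x axis). Plates 001 to 003 show 23, 33 and 32 rises, and plates 013 and 015 the most falls with 26 each.

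Plate and place on the array were compared as far as the print layout allows. The clones of a plate were spread over 4 of the 16 blocks, and plates 001 to 003 lay in the same blocks as other plates. Plate 001 shared its blocks with plates 005, 009, 013 and 017, which together had 33 rises and 59 falls and a median of -0.03. The plates sharing blocks with plate 002 had 34 rises and 73 falls and a median of -0.07, and those sharing blocks with plate 003 had 29 and 49 and a median of -0.03. Print-tip loess centres the ratios of each block near 0, so these medians are partly set by it and cannot decide on place. With loess over the whole array instead, the median of plates 001 to 003 was 0.21. What distinguishes the clones of these plates is not given in the sources used here, and its part in the result was not tested.

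**Figure D4:**
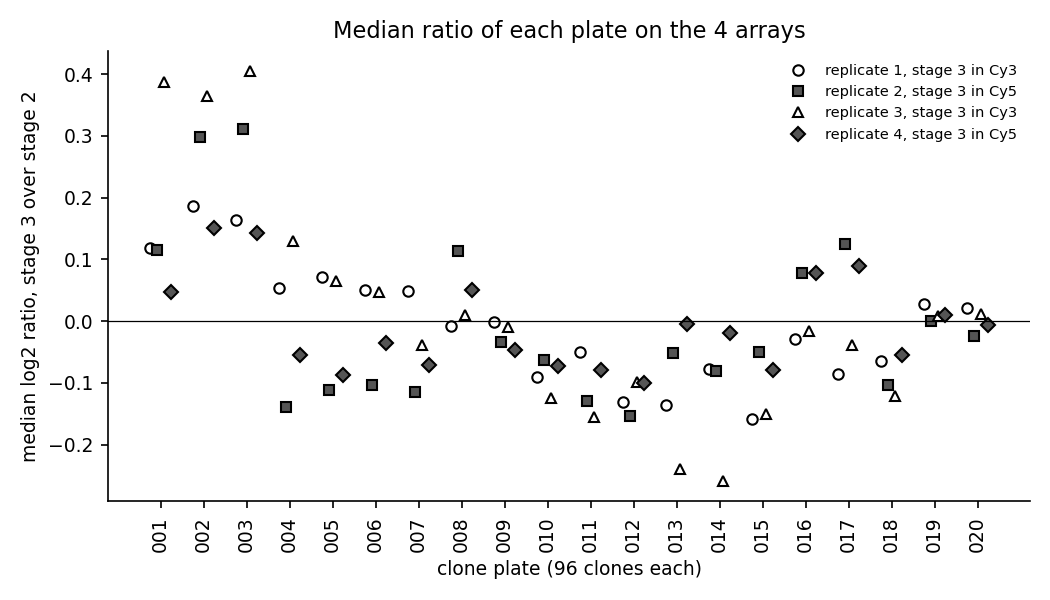
Median log2 ratio of stage 3 over stage 2 of the 96 clones of a plate (y axis) for each plate (x axis) and array, open symbols where stage 3 was labelled with Cy3 and filled symbols where it was labelled with Cy5. Only plates 001 to 003 have medians above 0.04 on all 4 arrays, and plate 020 stays within 0.03 of 0.

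The loop of hybridisations gave a second estimate of the same change, through stage 4 and stage 1, that shares no array with the direct one. It adds the ratio of stage 4 over 1 to the reversed ratios of stage 4 over 3 and of stage 2 over 1. It passes through 12 arrays of other pairs, and whether these used the same mussels is not given. The median correlation between the arrays of a pair was 0.74 for Stage4/Stage3, 0.49 for Stage2/Stage1 and 0.05 for Stage4/Stage1, against 0.78 for Stage3/Stage2. The standard error of the route was larger, with a median of 0.19 against 0.11 for the direct ratio in the same fit. Stage 3 and stage 2 differed by this route in 229 clones (11.9% of 1920), 92 higher and 137 lower. The direct ratio differed from the route in 225 clones (11.7%) in a limma contrast over all 16 arrays with 12 residual degrees of freedom. Since the called clones were chosen on the direct arrays, their direct ratios are expected to lie further from 0 than those of the route.

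Most rises had the same sign by the route. Of the 222 clones that rose directly, 167 (75.2%) had a route ratio above 0, where 58.3% of all clones did, and 42 differed between both estimates. Their median was 0.58 directly and 0.34 by the route. For the 32 rises over 2-fold the route ratio was above 0 in 29 and had a median of 0.75, and 6 differed. On plates 001 to 003, 76 of the 88 rises had a route ratio above 0, and 11 differed. Few of these rises were called by the route on its own. It called 25 of 222 higher (11.3%, against 4.79% of all clones) and 8 lower (3.6%, against 7.14%).

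Most of the large falls had the opposite sign by the route. Of the 227 clones that fell directly, 115 (50.7%) had a route ratio below 0, with a median of -0.01, and 101 (44.5%) differed between both estimates. Among all clones 58.3% had a route ratio above 0, and 11.7% differed. For the 73 falls over 2-fold the median was -1.60 directly and 0.70 by the route. The route ratio was above 0 in 54 of these 73 clones (74%), and 58 (79.5%) differed. On its own the route called 29 of them higher and 11 lower in stage 3. It called 4.79% of all clones higher and 7.14% lower. For the 154 smaller falls the route ratio was below 0 in 96 and had a median of -0.08, and 43 differed. Which of the estimates is nearer to the difference between ripe and developing mussels was not tested.

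The direction of every ratio rests on the stage that the labels give for each dye, and an exchange of these labels would turn the rises and falls printed here. Within Stage3/Stage2 the 4 arrays, oriented by their labels, all correlated above 0, while the median correlation within Stage4/Stage1 was 0.05. To describe the pairs as a whole, the sign of each pair was turned on all 4 of its arrays, a choice made after the values had been seen. Turning a whole pair cannot show a single array that goes against the others of its pair. Against 225 clones that differed as labelled, 422 differed with Stage3/Stage2 turned, 417 with Stage4/Stage3, 292 with Stage2/Stage1 and 274 with Stage4/Stage1. The large falls and large rises moved in opposite ways. With Stage3/Stage2 turned, 34 of the 73 falls and 29 of the 32 rises differed, and with Stage4/Stage3 turned, 12 falls and 32 rises did, against 58 and 6 as labelled. The labels of single channels could not be checked against the sources used here.

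The named clones showed the same split. For Myt01-001G04 the route gave 1.64 ± 0.52 (SE, limma adjusted p = 0.0521) and for Myt01-003D11 1.76 ± 0.93 (SE, limma adjusted p = 0.262), and neither differed from the direct ratio by the test (limma adjusted p = 0.35 and 0.736). Both had a positive ratio by either estimate. For Myt01-012A11 the route gave 0.74 ± 0.49 (SE), which differed from the direct -2.71 by -3.45 ± 0.56 (SE, limma adjusted p = 0.000529). For Myt01-013H05 the route gave a rise, 2.14 ± 0.44 (SE, limma adjusted p = 0.00554), and the difference was -4.77 ± 0.51 (SE, limma adjusted p = 1.82e-05).

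**Figure D5:**
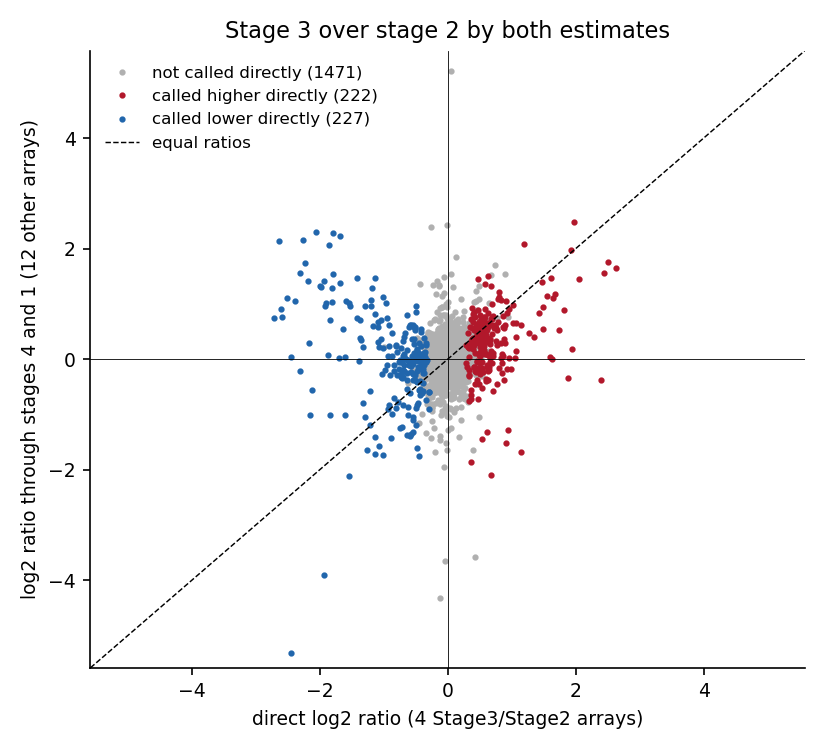
Log2 ratio of stage 3 over stage 2 through stages 4 and 1 (y axis, 12 arrays) against the direct ratio (x axis, 4 arrays), 1 point per clone, with direct rises in red, direct falls in blue and the dashed line where both are equal. Most red points lie above 0 on the y axis (167 of 222), while the blue points lie on both sides (115 of 227 below 0) and those furthest left mostly above 0.

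The ratios of the named clones in the other pairs show where the estimates part. Myt01-001G04 was at 0.81 ± 0.63 for stage 2 over 1, -2.29 ± 0.85 for stage 4 over 3 and 0.16 ± 0.16 for stage 4 over 1 (SD, n = 4 each). For Myt01-003D11 these ratios were 1.52 ± 1.46, -3.13 ± 1.38 and 0.15 ± 0.15, a rise into the ripe stage and a fall after it. Clone Myt01-012A11 was at -0.06 ± 0.23 for stage 2 over 1, -1.02 ± 0.45 for stage 4 over 3 and -0.34 ± 0.70 for stage 4 over 1. For Myt01-013H05 the ratios were -0.07 ± 0.22, -2.13 ± 0.29 and -0.06 ± 0.65. By their means, both falling clones were thus lower in stage 3 than in stage 2 and again lower in stage 4 than in stage 3. The means of stage 2 over 1 and of stage 4 over 1 lay closer to 0. For stage 4 over 1 the arrays had both signs, from -1.03 to 0.60 for Myt01-012A11 and from -0.95 to 0.59 for Myt01-013H05. Around the loop these mean ratios do not add up, so they give no single order of the stages.

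The medians of the called clones followed the same order. For the 32 rises over 2-fold the median ratio was 1.58 for stage 3 over 2, 0.42 for stage 2 over 1, -1.40 for stage 4 over 3 and 0.05 for stage 4 over 1. For the 73 falls over 2-fold it was -1.60, -0.06, -0.78 and -0.13 in the same order. The rising clones, chosen as higher in stage 3 than in stage 2, were thus on median also higher in stage 3 than in stage 4. The falling clones, chosen as lower in stage 3 than in stage 2, were on median also lower in stage 4 than in stage 3.

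Set beside the other pairs of stages, each from its own 4 arrays, Stage3/Stage2 was among the pairs with many changes. Stage4/Stage3 had 523 called clones (27.2%), Stage2/Stage1 34 (1.77%) and Stage4/Stage1 0 (0%, with 32 at an unadjusted p below 0.05 in limma). The SD of the mean ratios was 0.50 for Stage3/Stage2, 0.48 for Stage4/Stage3, 0.36 for Stage2/Stage1 and 0.12 for Stage4/Stage1. The difference in counts was not tested. Leaving out an array of the pair gave 193 to 589 calls for Stage4/Stage3 (193 without its replicate 3, 238 without replicate 2 and 329 without replicate 4) and 7 to 58 for Stage2/Stage1 (7 without replicate 1 or 3, 14 without replicate 2 and 58 without replicate 4). On plates 001 to 003, Stage4/Stage3 had 22 rises and 80 falls.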

How the data were processed

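The authors scanned the arrays and quantified them with GenePix. The deposited scanner files hold the raw intensity and local background of each spot in both dyes, and the series table deposited by the authors holds log2 ratios. Read as later over earlier stage, the latter followed the scanner values after loess over the array with slopes of 1.00 to 1.01, correlations of 0.997 to 0.999 and column medians of -0.04 to -0.01, which settles their scale, their centring and their direction relative to the labelled dyes. Which stage each dye carried comes from the labels alone. The submitters' processing notes name limma.

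Ratios were oriented by the labelled dyes. Foreground means were corrected by background medians with normexp (offset 50), and print-tip loess was applied with blank and alignment spots at weight 0. The 3840 clone spots gave 1920 clones, and the 4 arrays (3 residual degrees of freedom) were fitted with limma 3.58.1 (R 4.3.3), two-sided, with Benjamini-Hochberg adjustment over 1920 clones. Simulated data served to test the fit. Figures were drawn with matplotlib 3.10.9. Median raw intensities were 326 to 460.5 in Cy5 and 428 to 498 in Cy3, at most 0.493% of blank spots were above background, and the highest value (52567) was below saturation. The number of arrays limits the precision.

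Named clones were the 2 largest rises and 2 largest falls among called clones with the same sign and with both channels well above background on all 4. Gene lists and marker lists could not be applied, since the tables used here pair no clone with a gene. Clones, plates and lists were chosen with earlier results of these data known. The p-values cover the spread over these 4 arrays, which the labels call biological replicates. Alternatives covered background correction, normalization, duplicate spots, filters, dye, call rules, moderation, weights, the other arrays and leaving out each array.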

Additional observations from a re-analysis of the deposited data

Results flagged for a closer look

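The direct ratio of stage 3 over stage 2 and the ratio through stages 4 and 1 differed in 225 of 1920 clones (limma contrast, adjusted p below 0.05), 107 with the direct ratio higher and 118 with it lower. This result is listed because the same change, estimated from separate sets of arrays, differed by a test of the difference itself. Of the 73 clones that fell directly by more than 2-fold, 58 were among them, and of the 32 that rose by more than 2-fold, 6 were. Leaving out any 1 of the 16 arrays gave 177 to 242 such clones. Sets of 4 array values were also searched for a value standing apart from the other 3 by Dixon's criterion, and 0 of 34 sets held one, where chance gives about 1 in 20.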

How the results depend on the processing

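The direction of the 4 named clones was kept under all 22 alternatives run for each. These clones were chosen for the same sign on all 4 arrays, so leaving out an array could not reverse it. Several alternatives, such as the dye term, leave the ratio itself unchanged. The route through stages 4 and 1 was not among the alternatives, and it had the opposite sign for Myt01-012A11 and Myt01-013H05. Of the alternatives, 22 of 22 kept the call for Myt01-001G04 and Myt01-012A11, 21 for Myt01-003D11 and 20 for Myt01-013H05, whose ratio was -1.44 in a fit of stage effects to all 16 arrays, with an adjusted p of 0.0681 without and 0.101 with the replicate number as a block.

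Of 24 alternatives for the count of called clones (449), 17 stayed within 1.5 times of it. Among the exceptions were plain background subtraction (293), median centring (134, with 43 rises and 91 falls), B above 0 (122) and an added 2-fold limit (105). The others were leaving out replicate 1 (295), replicate 2 (101) or replicate 3 (215). Without replicate 4, 341 clones were called, which is within 1.5 times. The share of rises was 49.4%, and moved to 32.1% with median centring, 42.8% with the deposited ratios, 24.6% with B above 0 and 30.5% with the 2-fold limit. It was 50.5%, 15.8%, 40.9% and 45.2% without replicates 1 to 4. Rises on plates 001 to 003 (88) fell to 56 without background correction, 25 with median centring, 14 with B above 0, 17 with the 2-fold limit and 7 to 70 without an array. The median ratio of all clones, which normalization sets near 0, moved by less than 0.1 under each scaling, while that of plates 001 to 003 was 0.21, 0.10 without background correction and 0.32 with plain subtraction.

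Median centring lowered the median correlation of the arrays from 0.781 to 0.511 and the clones that differed from the route from 225 to 128. With the sign turned this count was 422 for Stage3/Stage2 and 417 for Stage4/Stage3. With a limit of 1 background SD, 1279 clones were above background throughout. Stage4/Stage3 had 298 calls without background correction and 287 with median centring, and Stage2/Stage1 had 16 and 123. Leaving out an array gave 193 to 589 and 7 to 58. The cause of these changes was not tested.

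Replicate numbers were not taken as pairs: deviations of same-numbered arrays correlated at -0.24 to 0.324 (24 pairs) and of other arrays at -0.296 to 0.306 (72 pairs). With the number as a replicate block in the fit to all 16 arrays, 504 clones were called, against 523 without it. Blocks for slide or scan and a filter on spot flags were not run, since the files used here have no such columns. Only 4 arrays, and faint clones of which 238 were never above background, limit what could be called.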
